A study of Mus musculus with 20 samples.

Results

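The probe sets described here belong to 4 growth factor systems, the fibroblast growth factors (FGF), the platelet-derived growth factors (PDGF), the insulin-like growth factors (IGF) and the vascular endothelial growth factors (VEGF). They were taken as every probe set of the array that is assigned to a single gene symbol starting with Fgf, Pdgf, Igf or Vegf, leaving out Fgfr4, Pdgfra and Pdgfrb. This gave 53 probe sets of 41 genes among the 12422 probe sets that are not array controls. By prefix there were 26 probe sets of 22 Fgf genes, 21 of 13 Igf genes, 2 of 2 Pdgf genes and 4 of 4 Vegf genes. Fgfr1op2 and Igf2bp1 enter through their symbols but encode no ligand, receptor or secreted binding protein. Fgfr1op2 encodes a partner protein of an FGF receptor fusion, and Igf2bp1 encodes a protein that binds RNA.

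Adult mice of the inbred strain C57BL/10SnJ were the source of the cells, which had been sorted from skeletal muscle or bone marrow, and total RNA of each sort was hybridised to an expression array. Sorting gave side population (SP) cells and main population (MP) cells of either tissue, so that there are 4 groups of 5 samples, the SP and the MP of bone marrow and the SP and the MP of muscle. The groups carry no treatment or altered gene in the labels and differ in tissue and sort. Side population cells retain little of a DNA dye because ABC transporters pump it out, while MP cells keep the dye, and blood stem cells of the bone marrow are known to lie in the SP. The labels do not state that each sample is from its own animal or sort, so the p-values rest on the spread among these arrays, and that spread may be technical.

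The ligands of all 4 systems act through receptor tyrosine kinases on the cell surface. VEGF ligands bind Flt1, Kdr and Flt4 and are known for vessel growth, PDGF ligands act on connective tissue and vessel wall cells, and FGFs bind their receptors together with heparan sulphate. IGF ligands signal through Igf1r and are known in muscle for growth and repair, Igf2r takes up and removes Igf2, and the secreted IGF binding proteins hold the ligands outside cells and control how much reaches the receptor. The FGF homologous factors Fgf11 to Fgf14 stay inside the cell and are not ligands of the FGF receptors.

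The promoters of 4 members are shown because these members carry the main contrasts below. Vegfc was higher in SP than in MP cells in both tissues, and the binding protein genes Igfbp3, Igfbp6 and Igfbp7 were all far higher in muscle than in bone marrow. Each line gives the 250 bases before an annotated start of the gene, 5' to 3' on the gene's strand, in the mouse build GRCm38.p6. For Vegfc, Igfbp6 and Igfbp7 this is the outer RefSeq start of the gene. The Igfbp3 window lies inside the gene's RefSeq span, chr11:7206086-7215498, before a start within it. The windows are chr8:54077282-54077531 on the plus strand for Vegfc, chr11:7213924-7214173 on the minus strand for Igfbp3, chr15:102143936-102144185 on the plus strand for Igfbp6 and chr5:77408046-77408295 on the minus strand for Igfbp7. Capitals mark a match on either strand to 1 of 5 motifs, a reverse match appearing as its reverse complement. The motifs searched were TATAAA (the TATA box), GGGCGG (the GC box), CCAAT (the CCAAT box), ACGTG (the core of the hypoxia response element) and TGACTCA (the AP-1 site).
Vegfc: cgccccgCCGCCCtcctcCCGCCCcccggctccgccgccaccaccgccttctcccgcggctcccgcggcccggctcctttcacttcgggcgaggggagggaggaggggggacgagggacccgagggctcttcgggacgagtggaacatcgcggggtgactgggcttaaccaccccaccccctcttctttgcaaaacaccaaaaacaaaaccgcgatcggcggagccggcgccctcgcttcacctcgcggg
Igfbp3: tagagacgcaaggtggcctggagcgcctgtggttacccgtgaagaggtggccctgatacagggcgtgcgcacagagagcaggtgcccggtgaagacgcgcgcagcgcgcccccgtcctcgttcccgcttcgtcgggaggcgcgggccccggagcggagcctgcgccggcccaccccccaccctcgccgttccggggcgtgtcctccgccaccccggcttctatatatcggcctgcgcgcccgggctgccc
Igfbp6: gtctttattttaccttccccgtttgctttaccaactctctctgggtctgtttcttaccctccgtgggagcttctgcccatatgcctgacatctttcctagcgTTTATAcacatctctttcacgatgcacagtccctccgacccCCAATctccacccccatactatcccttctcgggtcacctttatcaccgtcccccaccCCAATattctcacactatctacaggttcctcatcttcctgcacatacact
Igfbp7: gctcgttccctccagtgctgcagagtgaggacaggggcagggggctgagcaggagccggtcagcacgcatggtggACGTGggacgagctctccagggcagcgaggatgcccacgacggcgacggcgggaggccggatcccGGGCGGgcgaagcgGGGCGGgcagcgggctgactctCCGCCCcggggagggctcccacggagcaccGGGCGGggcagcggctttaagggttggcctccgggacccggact
Vegfc held GGGCGG on the reverse strand at 243 and 232 bases before the start, and Igfbp7 held it 4 times, at 110, 96 and 44 bases on the gene's strand and at 74 on the reverse strand. Igfbp7 also held ACGTG at 175 bases. Igfbp6 held CCAAT at 107 and 50 bases and a reverse TATAAA at 148, and the Igfbp3 window held none of the 5 motifs. Promoter windows were found for 33 of the 41 genes, 49 windows in all. Of these, 30 held GGGCGG, 16 held CCAAT, 6 held ACGTG, 3 held TATAAA and 2 held TGACTCA. Among all 32851 promoter windows of that length GGGCGG was in 32.7%, CCAAT in 33.8%, ACGTG in 16.6%, TATAAA in 12.4% and TGACTCA in 4.46%. A match is a description of the letters and no evidence of binding, and windows of the same gene can overlap.

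Values are log2 signals after quantile normalization, and every value under a signal floor, log2 6.71, was set to it. A probe set was tested if it lay above the floor on at least 5 of the 20 arrays. Of the 53 member probe sets, 36 (67.9%, 30 genes) passed, against 10310 of all 12422 (83%), and 8 members were at the floor on all 20 arrays. Those that did not pass were the probe sets of Fgf2, Fgf5, Fgf8, Fgf10, Fgf12, Fgf13, Fgf15, Fgf17 and Fgfbp1, both of Igfbp1 and of Igfals, and the further probe sets 98622_at of Igf2, 95083_at of Igfbp3, 162354_f_at of Igfbpl1 and 162171_f_at of Fgfr2. These have no measured difference here, which says nothing on whether the genes are expressed. The number of arrays limits the precision.

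Facts of the whole data set that touch the results below are these. Array medians lay between 318.1 and 611.75 signal units before normalization, and pairs of arrays of the same group correlated, across probe sets, at 0.911 to 0.981 (Pearson's r, log2). Degraded RNA, or RNA copied from its 3' end, raises the signal of the 3' GAPDH control over that of the 5' control. On the log2 scale this ratio averaged 3.83 ± 0.61 in muscle SP and 2.66 ± 0.62 in muscle MP (SD, n = 5, exact two-sided permutation test, p = 0.0317 after adjustment for 4 tests). The bone marrow means were 3.72 ± 0.60 in SP and 2.67 ± 0.72 in MP (adjusted p = 0.0397, exact permutation test). The part of this difference in the SP against MP results was not tested beyond the fits with that ratio as a covariate and without the 3 arrays of highest ratio, which are named where they end a call or give one to a member shown array by array.

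**Figure D1:**
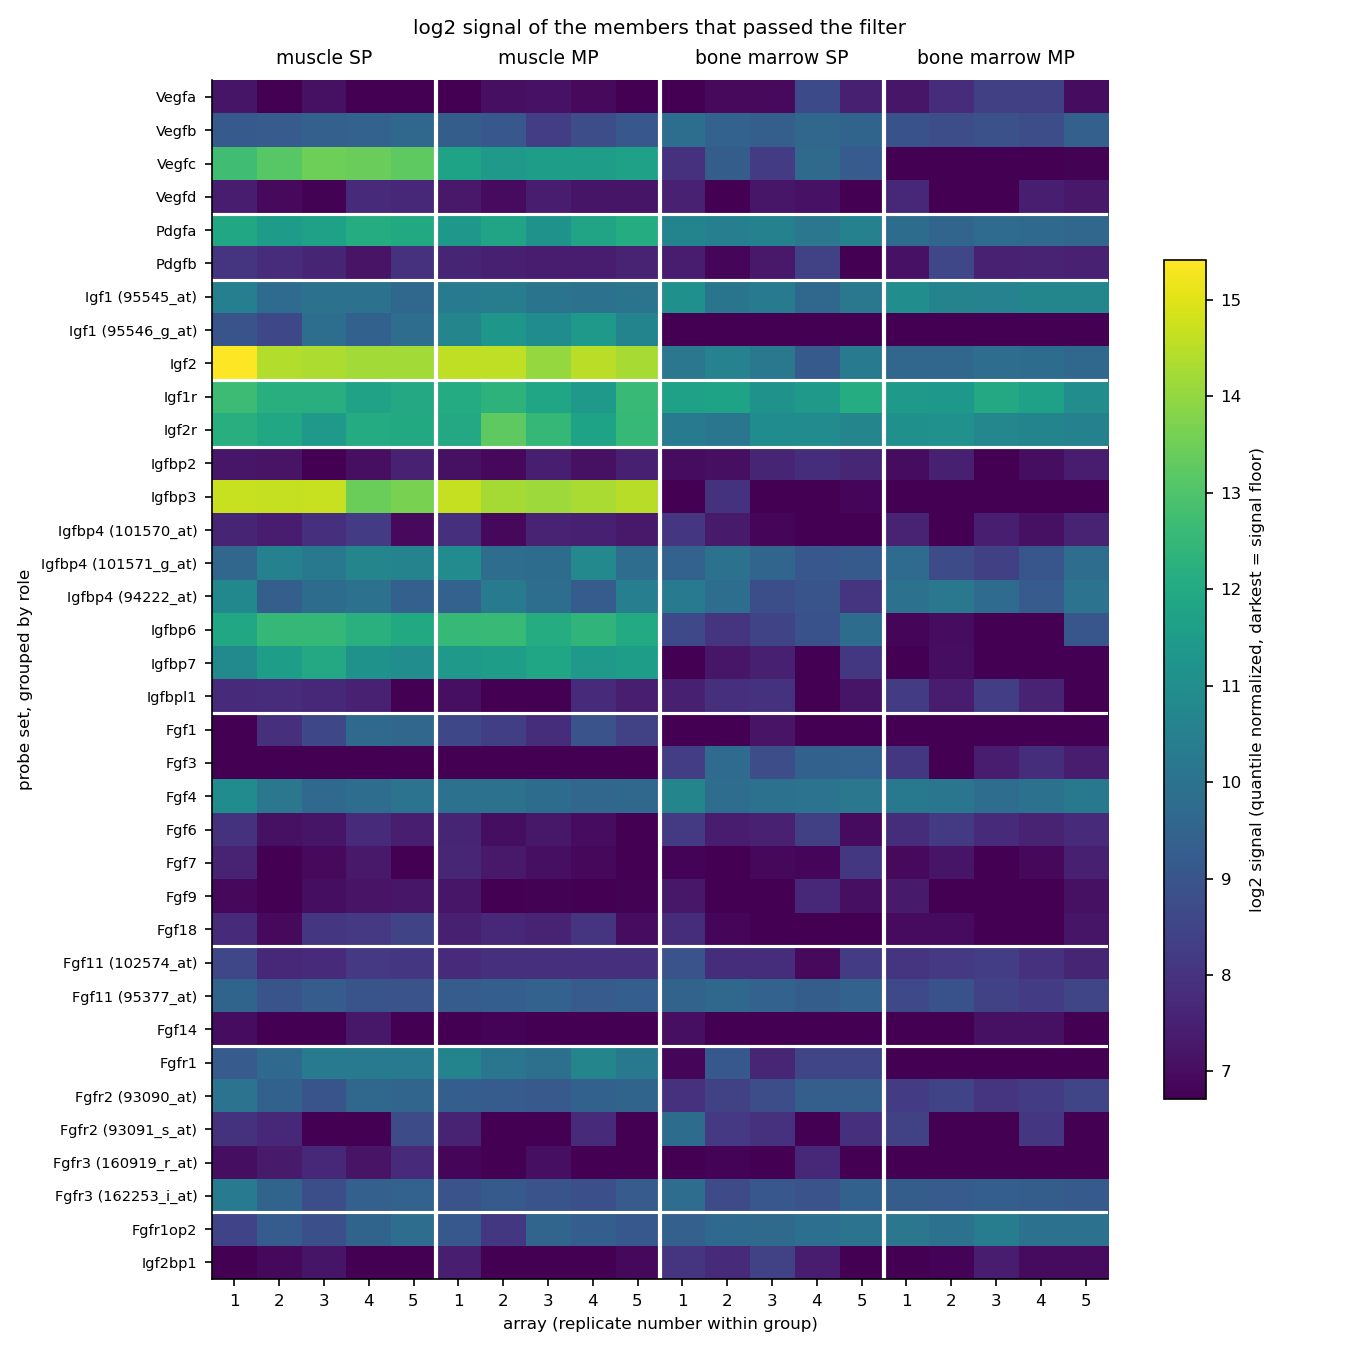
Log2 signal (colour, quantile normalized) of the 36 member probe sets that passed the filter (vertical axis, grouped by role) on each of the 20 arrays (horizontal axis, replicate number within group). Igf2, Igfbp3, Igfbp6, Igfbp7 and Vegfc are bright on the 10 muscle arrays, and Fgf3 lies at the floor of 6.71 on all 10 of them.

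Most members did not pass the test between SP and MP cells, and more passed between the tissues. The same held over all probe sets. In muscle, 3 of 36 members (8.33%) passed the test between SP and MP, 2 higher and 1 lower in SP, where 11.7% of all 10310 probe sets passed, 5.1% higher and 6.64% lower. In bone marrow 8 of 36 (22.2%) passed and all 8 were higher in SP, where 30.2% of all probe sets passed, 15.4% higher and 14.8% lower. Between muscle SP and bone marrow SP 15 members (41.7%) passed, 13 higher in muscle and 2 lower, beside 38.3% of all probe sets, 17.1% higher and 21.2% lower. Between muscle MP and bone marrow MP it was 18 (50%), again 13 higher in muscle and 5 lower, beside 46.5%, 20.9% higher and 25.6% lower. The SP against MP change differed between the tissues for 5 members (13.9%), all lower in muscle, beside 18.5% of all probe sets, 8.69% with a higher and 9.85% with a lower change in muscle. The members' shares were thus below the background in both SP against MP comparisons and in the difference between tissues, and near it between the tissues, so the counts alone are no result about these genes.

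The median member moved little. Its log2 difference was 0.10 for muscle SP against MP, 0.12 for bone marrow SP against MP, 0.34 for muscle SP against bone marrow SP and 0.08 for muscle MP against bone marrow MP, where the medians over all probe sets were 0.03, 0.02, -0.11 and -0.14. The members that did not pass between SP and MP lay between -0.50 and 0.49 in muscle and between -0.65 and 0.78 in bone marrow. Which direction held most calls over all probe sets depended on the scaling of the arrays in 4 of the 5 comparisons. In bone marrow 50.9% of the called probe sets were higher in SP, but 72.2% without further normalization and 32.9% with median scaling, and the median over all probe sets moved from 0.02 to 0.31 and -0.08. For the members the split in bone marrow was 8 higher and 0 lower, 12 and 0 without further normalization and 8 and 1 with median scaling. For the difference between tissues 46.9% of the called probe sets were on the positive side, 30.4% without further normalization and 62.2% with median scaling, while the called members were all on the negative side under the 3 settings (5, 7 and 5). Between the SP groups 44.7% of the called probe sets were higher in muscle, 36.1% without further normalization and 51.4% with median scaling, and the median over all probe sets moved from -0.11 to -0.27 and -0.07. The members called there were 13 higher and 2 lower, then 11 and 5, then 14 and 2. Between the MP groups the shares were 44.9%, 52.5% and 40.6%, and the members were 13 higher and 5 lower, then 14 and 2, then 13 and 5.

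Vegfc, a VEGF ligand known for the growth of lymphatic vessels, was the member that passed the SP against MP test in both tissues. On the 5 muscle SP arrays its log2 signals were 12.75, 13.15, 13.51, 13.41 and 13.26, and on the muscle MP arrays 11.74, 11.42, 11.58, 11.55 and 11.70. In bone marrow the SP arrays gave 7.95, 9.29, 8.26, 9.73 and 9.20, while 4 of the 5 MP arrays were at the floor and the other gave 6.77. No array of any group overlapped with another group, and the order from high to low was muscle SP, muscle MP, bone marrow SP, bone marrow MP.

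In muscle Vegfc was 3.06-fold higher in SP (log2 difference 1.61 ± 0.25, SE, adjusted p = 1.37e-04). In bone marrow it was 4.48-fold higher (2.16 ± 0.25, adjusted p = 8.44e-07), a size that depends on the floor, 6.82-fold with the floor at the 10th percentile and 1.87-fold with it at the 40th. The difference between these changes, -0.55 ± 0.35, did not pass (adjusted p = 0.325). Muscle SP exceeded bone marrow SP 20.1-fold (4.33 ± 0.25, adjusted p = 2.78e-12) and muscle MP exceeded bone marrow MP 29.4-fold (4.88 ± 0.25, adjusted p = 2.10e-13), the latter 44.8-fold and 12.2-fold with the lower and the higher floor. In sorted populations measured in bulk, fewer cells of a type and less RNA per cell cannot be told apart.

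Endothelial marker genes and markers of T and NK cells moved with Vegfc between SP and MP cells. Of 10 listed endothelial markers 8 were on the array. Their summed normalized signal was 108099 to 148936 on muscle SP arrays and 68472 to 80555 on muscle MP arrays, and 3 of the 8 were higher in SP with 0 lower. In bone marrow the sums were 7019.6 to 13036 in SP and 2742 to 3428 in MP, with 6 higher and 0 lower, and Tek, Tie1 and Cldn5 were at the floor on all bone marrow MP arrays. Of 7 T and NK cell markers on the array 4 were higher in muscle SP than MP and 6 in bone marrow, with 0 lower in either. Their sums were 1344 to 7845 in muscle SP against 417 to 622 in MP, with Cd3e and Cd3g at the floor on all muscle arrays, and 9142 to 25161 against 2416 to 3213 in bone marrow. Between the tissues the T and NK cell markers went the other way from Vegfc. In SP and in MP alike 5 of 7 were lower in muscle and 0 higher. All 8 blood stem and progenitor markers were also higher in bone marrow SP than MP, while 0 of 8 passed in muscle. The part of any of these lists in the Vegfc result was not tested.

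The other VEGF ligands behaved differently. Vegfb, a ligand of Flt1, gave 9.17, 9.20, 9.37, 9.43 and 9.67 in muscle SP and 9.29, 9.06, 8.29, 8.77 and 9.08 in muscle MP. Its bone marrow values were 9.85, 9.45, 9.35, 9.57 and 9.53 in SP and 8.89, 8.76, 8.86, 8.77 and 9.38 in MP. The groups of both tissues overlapped, in bone marrow through MP array 5 alone. It was 1.54-fold higher in bone marrow SP than MP (0.62 ± 0.19, adjusted p = 0.0152), a call lost with the GAPDH ratio as a covariate (adjusted p = 0.0962), and the muscle difference of 0.47 ± 0.19 did not pass (adjusted p = 0.114), except with array weights (adjusted p = 0.0467).

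Vegfa, the main driver of blood vessel growth, was dim. It gave 7.20, 6.71, 7.12, 6.71 and 6.71 in muscle SP and 6.71, 7.07, 7.15, 6.94 and 6.71 in muscle MP, so that 5 of the 10 muscle arrays were at the floor. In bone marrow the values were 6.71, 6.94, 6.94, 8.66 and 7.48 in SP and 7.24, 7.80, 8.36, 8.35 and 7.02 in MP. Bone marrow MP exceeded muscle MP 1.79-fold, with overlap (muscle minus bone marrow -0.84 ± 0.31, adjusted p = 0.0299). That call was lost without muscle MP array 1 or 5, without bone marrow MP array 2, 3 or 4, with the floor at the 10th percentile, with a pseudocount of 100 in place of the floor, without the filter and without further normalization, the highest adjusted p being 0.0901 for a fit without 1 array and 0.173 for the other settings. Bone marrow SP and MP did not differ past the threshold (-0.41, adjusted p = 0.362), but did without the 3 arrays of highest GAPDH ratio (-0.89, adjusted p = 0.0162) and without bone marrow SP array 4 (adjusted p = 0.0352). Vegfd, like Vegfc a ligand of Flt4, passed no comparison, with group means between 7.06 and 7.30.

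Pdgfa, which encodes the A chain of PDGF, was higher in muscle and, within bone marrow, in SP cells. Its muscle values were 11.88, 11.47, 11.70, 12.11 and 12.01 in SP and 11.35, 11.79, 11.19, 11.78 and 12.11 in MP. In bone marrow they were 10.65, 10.47, 10.55, 10.16 and 10.54 in SP and 9.79, 9.57, 9.75, 9.69 and 9.58 in MP. The muscle groups overlapped and the other pairs of groups did not. Bone marrow SP exceeded MP 1.74-fold (0.80 ± 0.18, adjusted p = 0.00161). The muscle signal was 2.57-fold higher in SP (1.36 ± 0.18, adjusted p = 1.76e-06) and 3.92-fold in MP (1.97 ± 0.18, adjusted p = 3.91e-09).

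The B chain gene Pdgfb passed no comparison, though muscle SP against bone marrow SP passed without bone marrow SP array 4 (adjusted p = 0.0390). Its values were 8.06, 7.81, 7.61, 7.16 and 7.95 in muscle SP, 7.62, 7.48, 7.37, 7.40 and 7.59 in muscle MP, 7.38, 6.83, 7.30, 8.39 and 6.71 in bone marrow SP and 7.12, 8.57, 7.53, 7.56 and 7.50 in bone marrow MP. All groups overlapped.

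**Figure D2:**
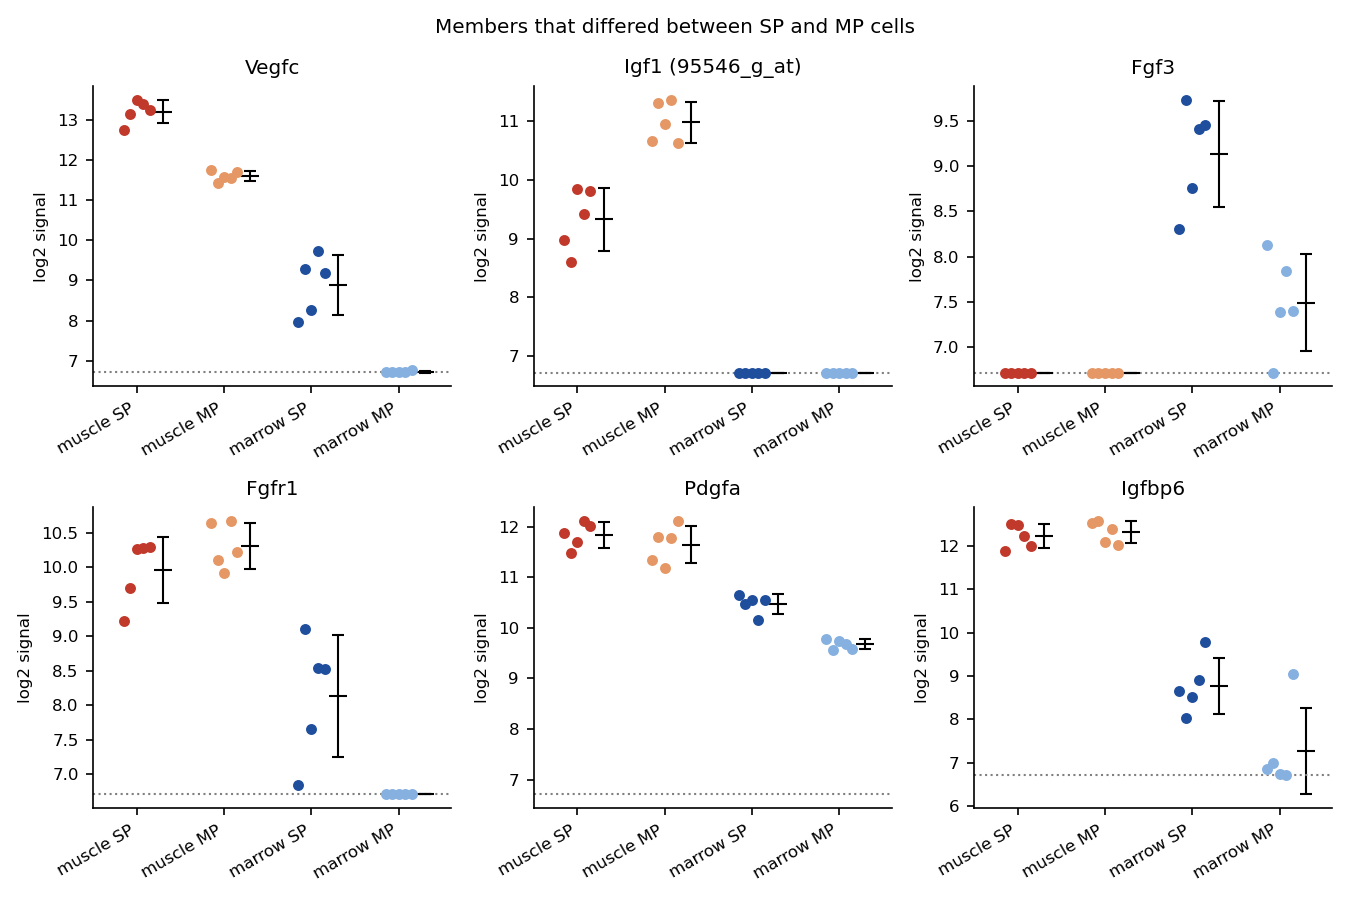
Log2 signal (vertical axis) of 6 members on every array of the 4 groups (horizontal axis), with bars for the mean and SD (n = 5) and a dotted line at the signal floor of 6.71. Vegfc is higher in SP in both tissues without overlap, Igf1 by probe set 95546_g_at is lower in muscle SP, and Fgf3, Fgfr1, Pdgfa and Igfbp6 are higher in bone marrow SP than in bone marrow MP, Igfbp6 with overlap through a single MP array.

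The IGF1 gene, Igf1, was read by 2 probe sets that disagreed. Probe set 95546_g_at gave 8.98, 8.60, 9.85, 9.41 and 9.81 in muscle SP and 10.66, 11.32, 10.95, 11.37 and 10.63 in muscle MP, and it was at the floor on all 10 bone marrow arrays. The muscle groups did not overlap, and SP was 3.15-fold lower (-1.66 ± 0.21, adjusted p = 1.42e-05). The tissues differed at least 6.15-fold in SP (adjusted p = 8.15e-10) and at least 19.4-fold in MP (adjusted p = 1.12e-13). With the floor at the 10th and 40th percentiles these folds were 15.8 and 2.53 in SP and 59.9 and 7.95 in MP.

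Probe set 95545_at of Igf1 gave 10.47, 9.77, 9.97, 9.99 and 9.65 in muscle SP, 10.26, 10.37, 10.05, 10.00 and 10.05 in muscle MP, 11.07, 10.08, 10.34, 9.64 and 10.19 in bone marrow SP and 10.97, 10.59, 10.57, 10.72 and 10.71 in bone marrow MP. It showed no difference in muscle that passed (-0.18 ± 0.21, adjusted p = 0.681). Muscle MP was 1.48-fold lower than bone marrow MP (-0.57 ± 0.21, adjusted p = 0.0324), without overlap, and this call was lost without further normalization (adjusted p = 0.107) and in each fit without muscle MP array 3, 4 or 5 or bone marrow MP array 1, 4 or 5 (highest adjusted p = 0.0814). Muscle SP against bone marrow SP did not pass (adjusted p = 0.299), but did without the 3 arrays of highest GAPDH ratio (adjusted p = 0.0186), and bone marrow SP against MP passed in 3 settings (lowest adjusted p = 0.00555). The suffix g marks a probe set that can also bind related sequences, and which of the 2 follows the gene was not tested.

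Fibroblast and macrophage markers moved with the 95546_g_at result in muscle. Of 9 fibroblast markers on the array 8 were lower in muscle SP than MP and 0 higher, and their summed signal was 66401 to 117737 in SP against 179466 to 272133 in MP. Of 10 macrophage markers 7 were lower and 0 higher, with sums of 4076 to 10173 against 15245 to 17408, and Adgre1 and Itgam were at the floor on all muscle SP arrays. Satellite cell and myogenic markers were lower for 5 of 7, with sums of 2548 to 2829 against 6532 to 10349. Between the tissues the macrophage markers went the other way from 95546_g_at. In SP 4 of 10 were lower in muscle and 0 higher, and in MP 8 were lower and 1 higher. The part of any of these lists in the result was not tested.

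Igf2, the second IGF ligand gene, was far higher in muscle by 1 of its 2 probe sets. By 98623_g_at, whose suffix carries the same caution as for Igf1, it gave 15.41, 14.42, 14.33, 14.21 and 14.19 in muscle SP and 14.60, 14.58, 14.03, 14.52 and 14.29 in muscle MP, against 10.16, 10.56, 10.21, 9.19 and 10.33 in bone marrow SP and 9.57, 9.60, 9.82, 9.80 and 9.63 in bone marrow MP. The tissues did not overlap and the populations within a tissue did. The muscle signal was 21.5-fold higher in SP (4.42 ± 0.24, adjusted p = 1.23e-12) and 26.3-fold in MP (4.72 ± 0.24, adjusted p = 2.29e-13). The SP against MP differences were 0.11 ± 0.24 in muscle and 0.41 ± 0.24 in bone marrow and did not pass. The bone marrow difference passed without the 3 arrays of highest GAPDH ratio (adjusted p = 0.00865), as did its difference from the muscle change (adjusted p = 0.0314), and also without bone marrow SP array 4 and without further normalization. The other probe set, 98622_at, was at the floor on all but 1 array and did not pass the filter, and which of the 2 follows the gene was not tested.

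**Figure D3:**
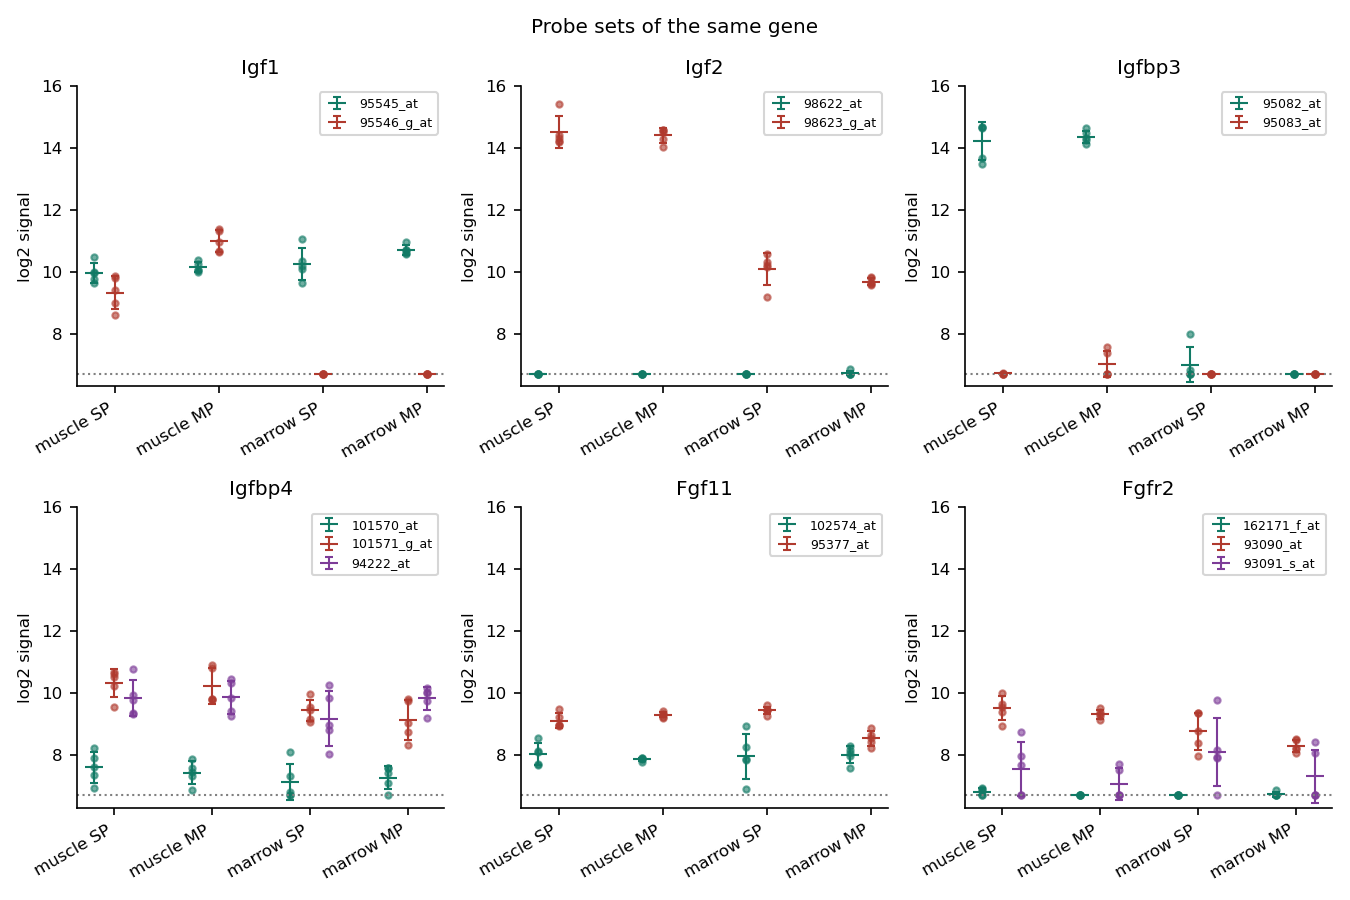
Log2 signal (vertical axis) of the separate probe sets of 6 genes (colours) on every array of the 4 groups (horizontal axis), with mean and SD (n = 5) and a dotted line at the floor of 6.71. For Igf1, Igf2 and Igfbp3 a probe set far higher in muscle stands beside another that is not.

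Of the receptors, Igf1r, the kinase that carries IGF signals, passed no comparison, though its tissue differences lay near the threshold. It gave 12.66, 12.15, 12.18, 11.72 and 11.97 in muscle SP, 12.08, 12.35, 11.84, 11.41 and 12.58 in muscle MP, 11.68, 11.77, 11.19, 11.38 and 12.09 in bone marrow SP and 11.38, 11.37, 11.95, 11.71 and 10.97 in bone marrow MP. All groups overlapped. The muscle minus bone marrow differences were 0.51 ± 0.24 in SP (adjusted p = 0.0966) and 0.58 ± 0.24 in MP (adjusted p = 0.0532). The MP difference passed in 10 other settings, among them the fit without the 3 arrays of highest GAPDH ratio (adjusted p = 0.0373) and that without muscle MP array 4 (adjusted p = 0.0161). The SP difference passed with median scaling (adjusted p = 0.0312) and without bone marrow SP array 5 (adjusted p = 0.0488).

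Igf2r was higher in muscle. Its values were 12.18, 11.90, 11.41, 12.06 and 11.99 in muscle SP, 11.97, 13.24, 12.52, 11.76 and 12.53 in muscle MP, 10.29, 10.14, 10.96, 10.90 and 10.66 in bone marrow SP and 11.08, 11.11, 10.75, 10.65 and 10.52 in bone marrow MP. No muscle array overlapped with a bone marrow array of the same population. Muscle exceeded bone marrow 2.50-fold in SP (1.32 ± 0.24, adjusted p = 1.34e-04) and 3.00-fold in MP (1.58 ± 0.24, adjusted p = 1.06e-05).

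Among the 8 genes counted here as binding proteins, which include Igfals, 6 had a probe set that passed the filter, 8 probe sets in all. Between the tissues 4 of these 8 probe sets were higher in muscle and 0 lower, in SP and in MP alike, beside 17.1% of all probe sets higher and 21.2% lower in SP and 20.9% and 25.6% in MP. The binding protein with the largest difference was Igfbp3, the main carrier of IGFs in blood. By probe set 95082_at it gave 14.69, 14.64, 14.67, 13.48 and 13.66 in muscle SP and 14.64, 14.24, 14.14, 14.32 and 14.48 in muscle MP. In bone marrow SP 3 arrays were at the floor and arrays 2 and 5 gave 8.0 and 6.84, and all 5 bone marrow MP arrays were at the floor. The tissues lay far apart, and muscle SP and MP overlapped. Muscle exceeded bone marrow 150-fold in SP (7.23 ± 0.26, adjusted p = 1.01e-15) and at least 201-fold in MP (7.65 ± 0.26, adjusted p = 2.42e-16). The floor sets the size, which was 254-fold and 75.3-fold in SP with the floor at the 10th and 40th percentiles. Probe set 95083_at of the same gene stayed near the floor, with a highest value of 7.59 and group means up to 7.02, and did not pass the filter. Which of the 2 probe sets follows Igfbp3 was not tested.

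Igfbp6, a binding protein with a preference for Igf2, gave 11.90, 12.51, 12.50, 12.23 and 12.00 in muscle SP and 12.54, 12.57, 12.10, 12.40 and 12.04 in muscle MP. Its bone marrow values were 8.64, 8.04, 8.51, 8.91 and 9.78 in SP and 6.85, 7.0, 6.73, 6.71 and 9.04 in MP. Muscle and bone marrow did not overlap, and bone marrow MP array 5 lay among the SP arrays. Muscle exceeded bone marrow 10.9-fold in SP (3.45 ± 0.36, adjusted p = 4.79e-08) and 33.4-fold in MP (5.06 ± 0.36, adjusted p = 5.33e-11). Bone marrow SP exceeded MP 2.84-fold (1.51 ± 0.36, adjusted p = 0.00249), and this call was lost with the floor at the 40th percentile, at 1.49-fold.

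Igfbp7, a related secreted protein found in vessel walls, gave 10.83, 11.59, 11.95, 11.18 and 10.98 in muscle SP and 11.38, 11.56, 11.88, 11.40 and 11.55 in muscle MP. In bone marrow it gave 6.71, 7.24, 7.48, 6.71 and 8.13 in SP and 6.71, 7.04, 6.71, 6.71 and 6.71 in MP. The tissues did not overlap. Muscle was 16.6-fold higher in SP (4.05 ± 0.24, adjusted p = 5.82e-12) and 27.4-fold higher in MP (4.78 ± 0.24, adjusted p = 2.03e-13), the latter 59.9-fold and 11.8-fold with the lower and the higher floor. Neither SP against MP difference passed, but that in bone marrow did without further normalization (adjusted p = 0.0434) and with the floor at the 10th percentile (adjusted p = 0.0471).

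The remaining binding proteins moved less. Igfbp4, which binds IGFs until a protease cleaves it, was higher in muscle by probe set 101571_g_at, 1.83-fold in SP (0.87 ± 0.31, adjusted p = 0.0268) and 2.12-fold in MP (1.08 ± 0.31, adjusted p = 0.00557), with overlap in both. The SP call was lost without further normalization (adjusted p = 0.0916), without the 3 arrays of highest GAPDH ratio (adjusted p = 0.0597) and in each fit without muscle SP array 2, 4 or 5 or bone marrow SP array 4 or 5 (highest adjusted p = 0.0680). Its probe sets 101570_at and 94222_at passed no comparison. Igfbp2, which binds both IGF ligands, and Igfbpl1 passed none either, with group means of 7.12 to 7.43 and 7.14 to 7.65.

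Fibroblast, endothelial and smooth muscle markers also separated the tissues. All 9 fibroblast markers were higher in muscle in SP and in MP, with sums of 1578 to 3435 on bone marrow SP and 1897 to 2638 on bone marrow MP arrays. Dpt was at the floor on all bone marrow arrays, and Col1a2, Serpinf1 and Fap on all bone marrow MP arrays. Of 8 endothelial markers 7 were higher in muscle in each population, and Pecam1, which blood cells carry too, was lower in muscle MP (-0.70, adjusted p = 0.0397). Of 7 smooth muscle and pericyte markers 6 were higher and 0 lower. Satellite cell and myogenic markers were higher in muscle for 3 of 7 in SP and 6 of 7 in MP, with 0 lower. The 3 pan-leukocyte and all 8 granulocyte markers were lower in muscle in both populations. Of 7 B lineage markers 3 were lower and 1 higher in muscle SP, and 6 were lower and 1 higher in muscle MP. The part of any of them in the muscle against bone marrow results was not tested.

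**Figure D4:**
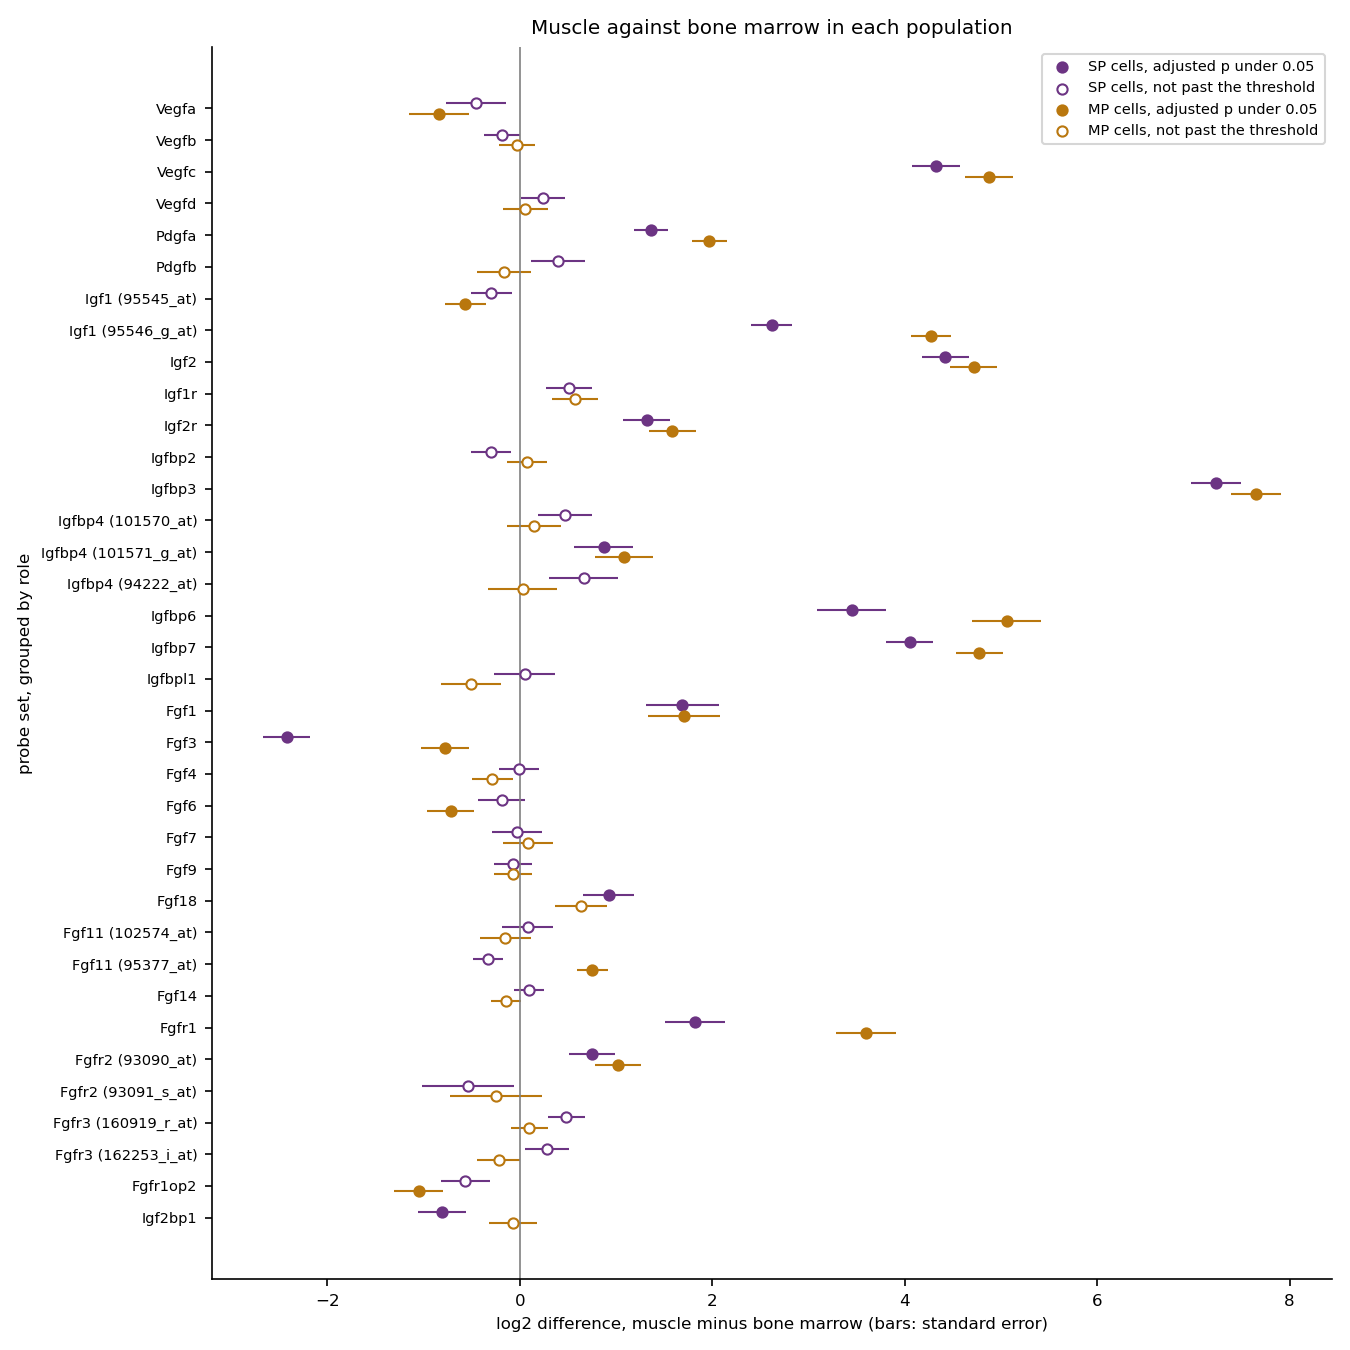
Log2 difference, muscle minus bone marrow (horizontal axis, bars show the standard error), of each member that passed the filter (vertical axis), for SP (purple) and MP cells (ochre). Filled points passed the test. Igfbp3 stands at 7.23 and 7.65, and Fgf3 lies below 0 in both populations.

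Of the 13 genes of secreted FGFs, 7 passed the filter. Fgf3, a ligand known from embryonic development of the inner ear, was at the floor on all 10 muscle arrays. In bone marrow its values were 8.30, 9.74, 8.76, 9.41 and 9.46 in SP and 8.12, 6.71, 7.38, 7.83 and 7.39 in MP. All 5 SP arrays lay above all MP arrays. Bone marrow SP exceeded MP 3.13-fold (1.65 ± 0.25, adjusted p = 2.26e-05) and exceeded muscle SP at least 5.36-fold (muscle minus bone marrow -2.42 ± 0.25, adjusted p = 3.40e-08). Bone marrow MP exceeded muscle MP at least 1.71-fold (-0.78 ± 0.25, adjusted p = 0.0124), with overlap at the floor, and with the floor at the 40th percentile this fell to 1.02-fold and did not pass.

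Fgf1, which binds all FGF receptors, was higher in muscle. Its mean was 8.50 ± 1.23 (SD, n = 5) in muscle SP, with a range from the floor to 9.68, and 8.42 ± 0.40 in muscle MP. It was at the floor on 4 bone marrow SP arrays and all 5 bone marrow MP arrays. In SP it was 3.23-fold higher in muscle (1.69 ± 0.38, adjusted p = 9.08e-04) and in MP at least 3.27-fold (1.71 ± 0.38, adjusted p = 6.46e-04). The MP fold was 8.73 with the floor at the 10th percentile, and at the 40th it was 1.37 and did not pass.

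Fgf18, a ligand known from cartilage and bone, was 1.90-fold higher in muscle SP than in bone marrow SP, with overlap (0.92 ± 0.27, adjusted p = 0.00820), and this was lost without the 3 arrays of highest GAPDH ratio (adjusted p = 0.0673). Fgf6, a ligand studied in muscle repair, was 1.64-fold lower in muscle MP than in bone marrow MP, with overlap (-0.72 ± 0.25, adjusted p = 0.020). That was lost without further normalization and without muscle MP array 5 or bone marrow MP array 2 (highest adjusted p without 1 array 0.0609). Fgf4, a ligand of the early embryo, Fgf7, the keratinocyte growth factor, and Fgf9 passed no comparison. Fgf4 had group means between 9.80 and 10.13, Fgf7 between 7.04 and 7.13, and Fgf9 between 6.84 and 7.09.

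Of the 4 homologous factor genes, Fgf11 and Fgf14 passed the filter. Fgf11 by probe set 95377_at gave 9.50, 8.97, 9.25, 8.96 and 8.93 in muscle SP, 9.24, 9.33, 9.43, 9.22 and 9.33 in muscle MP, 9.47, 9.61, 9.46, 9.27 and 9.45 in bone marrow SP and 8.64, 8.90, 8.44, 8.24 and 8.54 in bone marrow MP. Bone marrow MP stood below the other 3 groups without overlap. SP exceeded MP 1.87-fold in bone marrow (0.90 ± 0.16, adjusted p = 1.27e-04), and muscle MP exceeded bone marrow MP 1.69-fold (0.76 ± 0.16, adjusted p = 3.59e-04). Muscle SP against bone marrow SP did not pass (-0.33, adjusted p = 0.104), but did in 5 settings, among them the fits without the 3 arrays of highest GAPDH ratio and without muscle SP array 1 (lowest adjusted p = 0.0201). Probe set 102574_at of Fgf11 passed no comparison, with a bone marrow SP against MP difference of -0.05 ± 0.26. Fgf14 lay above the floor on 6 of 20 arrays and passed none.

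Fgfr1, an FGF receptor of connective tissue cells, was read by probe set 97509_f_at, whose suffix f also marks possible binding of related sequences. It gave 9.23, 9.70, 10.27, 10.28 and 10.30 in muscle SP and 10.65, 10.11, 9.91, 10.67 and 10.22 in muscle MP. Bone marrow SP arrays gave 6.85, 9.11, 7.66, 8.54 and 8.53, and all bone marrow MP arrays were at the floor. The tissues did not overlap, nor did the bone marrow groups. Bone marrow SP exceeded MP at least 2.69-fold (1.43 ± 0.31, adjusted p = 0.00121), 5.53-fold with the floor at the 10th percentile, and with the floor at the 40th percentile 1.36-fold and past the threshold no longer. Muscle exceeded bone marrow 3.52-fold in SP (1.82 ± 0.31, adjusted p = 5.54e-05) and at least 12.1-fold in MP (3.60 ± 0.31, adjusted p = 1.65e-09), the latter 25-fold and 4.99-fold with the lower and the higher floor.

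Fgfr2, the receptor known from epithelia, was higher in muscle by probe set 93090_at, 1.69-fold in SP with overlap (0.75 ± 0.24, adjusted p = 0.0150) and 2.03-fold in MP without (1.02 ± 0.24, adjusted p = 0.00119). The SP call was lost without bone marrow SP array 1 (adjusted p = 0.0542), without further normalization and with only the groups compared in the fit. Probe set 93091_s_at of Fgfr2 passed no comparison. Fgfr3, the receptor known from growing cartilage, was by 160919_r_at 1.51-fold higher in muscle SP than MP, with overlap (0.59 ± 0.19, adjusted p = 0.0492), and this was lost in 17 settings, among them the GAPDH ratio as a covariate (adjusted p = 0.128), the replicate block and 15 of the 20 fits without 1 array (highest adjusted p = 0.124). Its other probe set, 162253_i_at, differed by 0.46 ± 0.23 in the same comparison and did not pass (adjusted p = 0.214).

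Fgfr1op2 and Igf2bp1 were both higher in bone marrow where they differed between tissues. Fgfr1op2 gave 8.45, 9.26, 8.83, 9.50 and 9.83 in muscle SP, 9.12, 8.11, 9.55, 9.31 and 9.10 in muscle MP, 9.37, 9.68, 9.72, 9.89 and 10.04 in bone marrow SP and 10.15, 9.95, 10.35, 9.99 and 10.00 in bone marrow MP. Every bone marrow MP array lay above every muscle MP array, a 2.07-fold difference (muscle minus bone marrow -1.05 ± 0.25, adjusted p = 0.00163). Igf2bp1 was 1.61-fold higher in bone marrow SP than MP (0.69 ± 0.25, adjusted p = 0.0391), with overlap. That call was lost with the floor at the 10th percentile (adjusted p = 0.334), a pseudocount of 100 in place of the floor (adjusted p = 0.197), only the groups compared in the fit (adjusted p = 0.119), no filter (adjusted p = 0.0548) or the GAPDH ratio as a covariate (adjusted p = 0.0540), and in 7 fits without 1 bone marrow array (highest adjusted p = 0.129). Igf2bp1 was 1.75-fold lower in muscle SP than in bone marrow SP (-0.81 ± 0.25, adjusted p = 0.0118), which was lost with the floor at the 10th percentile and with only the groups compared in the fit.

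The SP against MP change differed between the tissues for 5 members, each with the lower change in muscle. The muscle change minus the bone marrow change was -1.78 ± 0.44 for Fgfr1 (adjusted p = 0.00621), -1.66 ± 0.30 for Igf1 by 95546_g_at (adjusted p = 4.21e-04), -1.65 ± 0.35 for Fgf3 (adjusted p = 0.00178), -1.61 ± 0.51 for Igfbp6 (adjusted p = 0.0289) and -1.09 ± 0.22 for Fgf11 by 95377_at (adjusted p = 0.00131). The first 3 of these contain a group at the floor on all arrays, so the value also depends on the floor. For Igf1 it is the muscle change alone because both bone marrow groups were at the floor. For Fgf3 it is the bone marrow change alone with its sign turned, because both muscle groups were at the floor and no muscle change could be measured. Igfbp6 lost the call with the floor at the 40th percentile (adjusted p = 0.209), without the filter (adjusted p = 0.0592), without the 3 arrays of highest GAPDH ratio (adjusted p = 0.147) and in fits without bone marrow SP array 5 or bone marrow MP array 1, 3 or 4 (highest adjusted p = 0.0588). Fgfr1 lost it with the floor at the 40th percentile and Fgf3 with the floor at the 10th. All 8 blood stem and progenitor markers on the array had a lower change in muscle than in bone marrow too. Their sums were 27169.9 to 36156 on bone marrow SP and 5587 to 7068 on bone marrow MP arrays. The change was also lower for 8 of 9 fibroblast, 5 of 7 satellite cell and myogenic, 3 of 8 endothelial and 2 of 7 T and NK cell markers, with 0 higher. It was higher for 4 of 7 B lineage, 2 of 8 granulocyte and 1 of 7 smooth muscle and pericyte markers, with 0 lower. Of 10 macrophage markers 2 were higher and 2 lower. The part of any of these lists in these results was not tested.

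**Figure D5:**
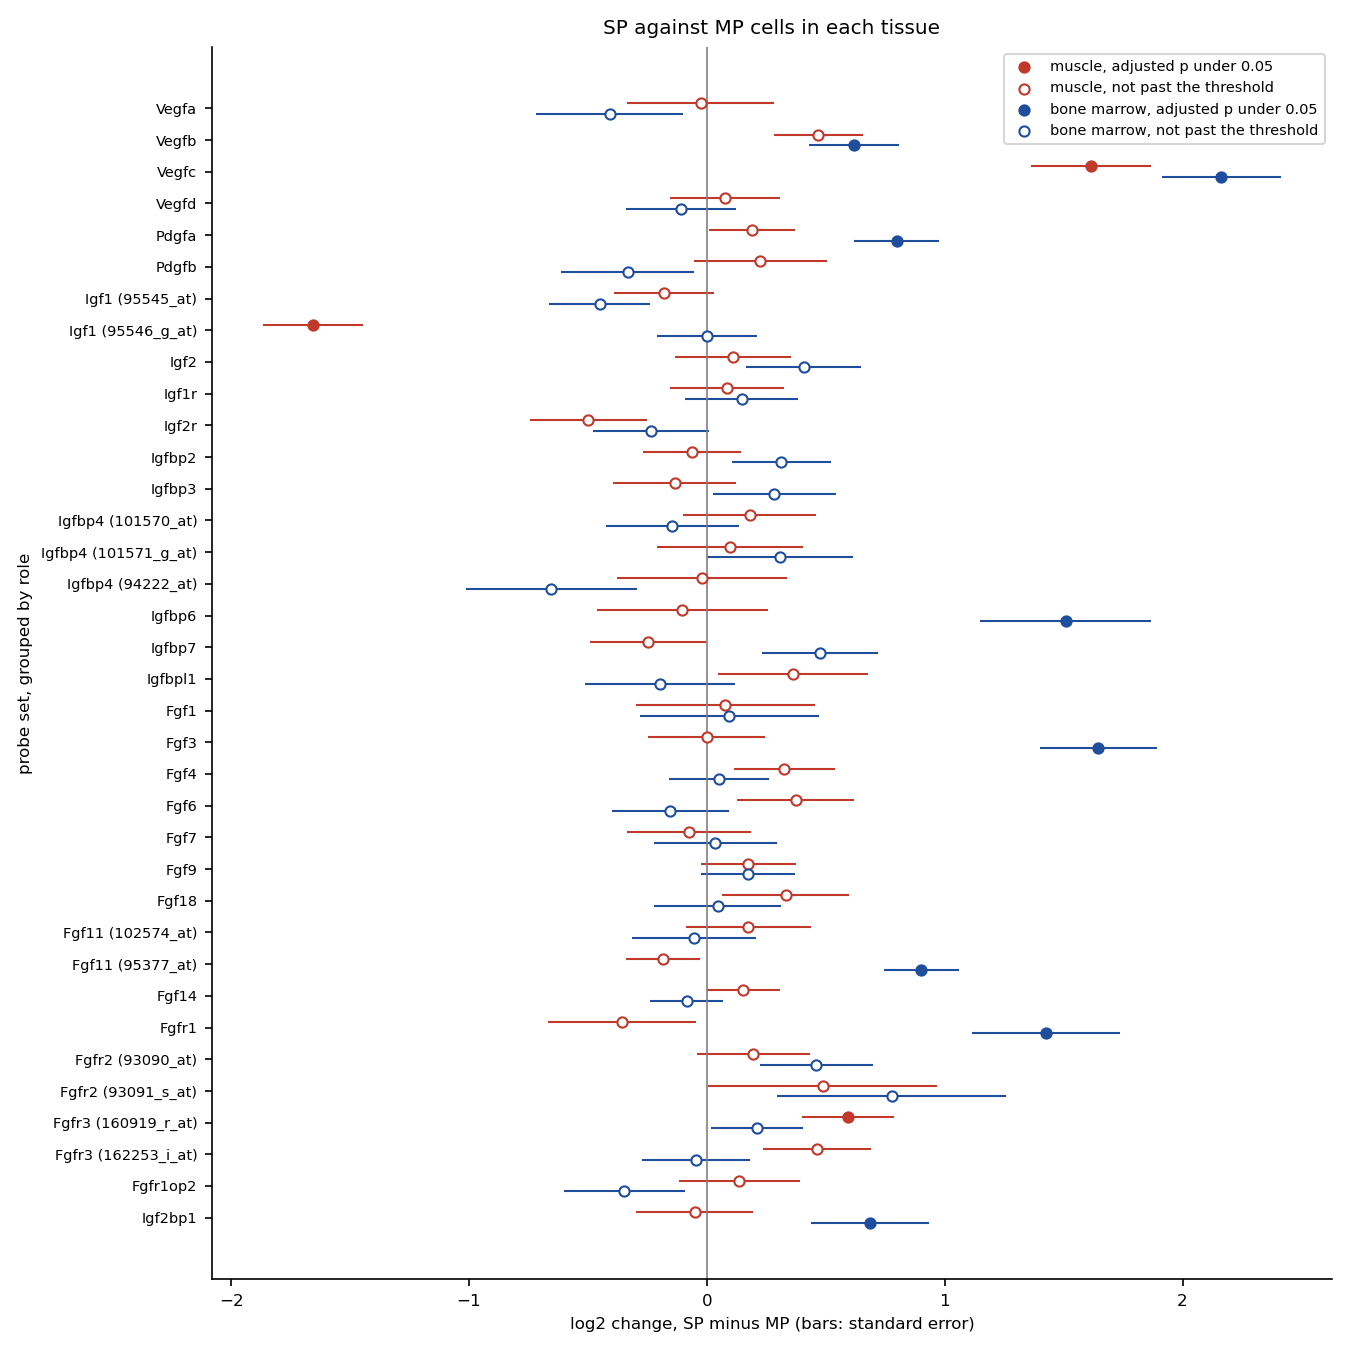
Log2 change, SP minus MP (horizontal axis, bars show the standard error), of each member that passed the filter (vertical axis), in muscle (red) and bone marrow (blue). Filled points passed the test, 3 in muscle and 8 in bone marrow. Fgf3, Fgfr1 and Igfbp6 have filled points in bone marrow and open points in muscle, and Vegfc is filled and above 0 in both tissues. For Fgf3 both muscle groups were at the floor.

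Receptors, adaptors and kinases that work with these factors but carry other names were read from a list of 76 genes, 51 of them on the array and 47 tested. In muscle 2 of 47 were higher in SP and 3 lower (10.6%, beside 11.7% of all probe sets), and in bone marrow 7 were higher and 11 lower (38.3%, beside 30.2%). Between tissues 14 were higher in muscle and 6 lower in SP (42.6%, beside 38.3%), and 15 and 12 in MP (57.4%, beside 46.5%). The tissue difference of the SP against MP change passed for 5 genes (10.6%, beside 18.5%). The bone marrow split turned with the scaling, to 13 higher and 6 lower without further normalization.

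Flt1, Kdr and Nrp1 held the largest tissue differences of these genes in SP cells, and Flt1, Kdr, Gab1 and Nrp1 in MP cells. Flt1, a receptor for Vegfa and Vegfb, was 64.8-fold higher in muscle SP than in bone marrow SP (14.14 against 8.12) and 86.0-fold higher in MP. Kdr, the main signalling receptor for Vegfa, was 27.4-fold and 98.2-fold higher, and the co-receptor Nrp1 52.0-fold and 23.6-fold. Gab1, an adaptor of receptor kinases, was 40.2-fold higher in muscle MP than in bone marrow MP (12.59 against 7.26) and 4.38-fold in SP. Flt4, the receptor for Vegfc, added here after its values were seen, was 5.14-fold higher in muscle SP (10.63 against 8.26) and 5.13-fold in muscle MP, and did not pass between SP and MP in either tissue. The proteoglycan gene Gpc4 was 9.51-fold higher in muscle SP than in bone marrow SP.

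Within bone marrow, SP exceeded MP 7.31-fold for Gab1 (2.87 ± 0.38, adjusted p = 4.72e-06), 3.70-fold for Irs2, an adaptor of the insulin and IGF receptors, and 3.00-fold for Kdr. The kinase gene Map2k1 was 3.42-fold lower in bone marrow SP. In muscle SP, Sdc4, a heparan sulphate proteoglycan that binds FGFs, was 3.37-fold lower (9.51 against 11.27), Akt2 2.43-fold lower and Map2k1 1.98-fold lower, and Sos1 was 1.95-fold higher. The Akt2 call was lost with the floor at the 40th percentile, at 1.38-fold (adjusted p = 0.310), and without muscle MP array 2 or 4. The Sos1 call was lost with the GAPDH ratio as a covariate, at 1.53-fold (adjusted p = 0.254), and without muscle SP array 1 or muscle MP array 3. The muscle change minus the bone marrow change was -3.20 on the log2 scale for Gab1, -1.84 for Kdr, 1.82 for Plcg2, a phospholipase of blood cells, and 1.31 for the adaptor Nck1.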

How the data were processed

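RNA of 20 samples, 5 in each of 4 groups, had been hybridised to Affymetrix arrays. What the submitters deposited is a linear signal intensity for each probe set on each array. Of 12488 probe sets, 66 array controls were left out. The lowest value was 0, and array scaling shows only in the values. Not given in the sources used here are the software, the probe summary, the background correction and the genome build. Genes were named from the platform annotation, checked by gene identifier against RefSeq (GRCm38.p6, all 53 members matched).

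Since medians of the arrays spanned 0.94 log2 units, the non-control probe sets were quantile normalized, set to at least the 25th percentile (104.77 signal, log2 6.71) and taken to log2. The 10310 probe sets that exceeded it on 5 or more arrays entered 1 model of all groups (limma 3.58.1, R 4.3.3, lmFit and plain eBayes). The two-sided p-values were adjusted over these probe sets (Benjamini-Hochberg, threshold 0.05). The script was tested on simulated data. Quantile normalization removes any overall difference in RNA content, and for dim genes the floor makes folds smaller. Where all arrays of the dimmer group were at the floor a fold is a lower bound. Values after ± are standard errors for differences and SDs for means.

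Members and lists were chosen with earlier results of these data known. Members with a 2-fold or larger change past the threshold and no overlap (up to 6 each way per comparison), those past the threshold for the difference between tissues, and Fgfr1, Igf1, Igf1r, Igf2r, Pdgfa, Pdgfb, Vegfa and Vegfb are given with every array. Up to 4 list genes per comparison are named by size of change, and a list gene is its brightest single-symbol probe set. Alternatives covered normalization, floor, filter, moderation, array weights, the samples fitted, the replicate number, the GAPDH ratio and each array left out. Plots used matplotlib 3.10.9 (Python 3.11.15).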

Additional observations from a re-analysis of the deposited data

Results flagged for a closer look

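In each group of 5 arrays the highest or lowest array of every member that passed the filter was compared with the gap to its neighbour by Dixon's critical value for 5 samples. Of 136 groups with any spread 16 had such an array. In 5 of the 16 the other 4 arrays were at the floor, and a lone array above the floor is always flagged. For the flags of Fgf18, Fgfr3, Igf2bp1 and Igfbp3, 3 of the other 4 arrays were at the floor. The chance rate of about 1 in 20 holds for values without a floor, so the count cannot be set against it. Values are log2 signals.

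Among the genes with differences reported above, Igf2 stood out on muscle SP array 1 at 15.41, Igfbp6 on bone marrow MP array 5 at 9.04, Vegfb on bone marrow MP array 5 at 9.38 and Vegfc on bone marrow MP array 5 at 6.77. Igfbp3 stood out on bone marrow SP array 2 at 8.0, Igfbp7 on bone marrow MP array 2 at 7.04 and Fgf1 on bone marrow SP array 3 at 7.19. Bone marrow MP array 5 was thus high for Igfbp6 and Vegfb. For Vegfc it lay just above the floor to which the other bone marrow MP arrays were set. The deposited Vegfc signals of bone marrow MP were 73.5, 12.7, 51.4, 76 and 100.2, so that flag comes from the floor.

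The other single arrays belonged to dim probe sets, of which those of Fgf18, Fgfr3 and Igf2bp1 also had differences reported above. They were Fgf18 on bone marrow SP array 1 at 7.84, Fgf7 on bone marrow SP array 5 at 8.14, Fgfr3 by 160919_r_at on bone marrow SP array 4 at 7.68 and Fgf14 on bone marrow SP array 1 at 7.06. Muscle MP array 1 stood apart for Fgf9 at 7.24, for Igf2bp1 at 7.43 and, on the low side, for Fgf11 by 102574_at at 7.80. Fgf14 on muscle MP array 2 was at 6.78, and Igfbpl1 on muscle SP array 5 was at the floor, 6.71.

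The SP against MP change differed between the tissues, by the test of the difference itself, for 5 members. As muscle change minus bone marrow change the values were -1.09 for Fgf11 by 95377_at, -1.65 for Fgf3, -1.78 for Fgfr1, -1.66 for Igf1 by 95546_g_at and -1.61 for Igfbp6. Both muscle groups were at the floor for Fgf3, and both bone marrow groups for Igf1.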

How the results depend on the processing

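Of the 49 member calls over the 5 comparisons 32 kept their direction and their side of the threshold under every alternative that tested them. Another 17 were lost under at least 1, and 0 changed sign. An alternative whose filter left out the probe set was not counted as a loss. The Fgf1 and Fgf3 calls between muscle SP and bone marrow SP, for example, were followed through 32 alternatives, where the Fgfr1 call there had 33. The calls that were lost are given in the report. Of 47 member differences that did not pass and were followed through the alternatives, 14 passed under at least 1. With the floor at the 40th percentile the members called between bone marrow SP and MP fell from 8 to 5 and those for the difference between tissues from 5 to 3, since dim probe sets then no longer pass. With each array left out in turn the counts of members were 2 to 3 for muscle SP against MP, 7 to 10 for bone marrow SP against MP, 14 to 17 for muscle SP against bone marrow SP, 16 to 19 for muscle MP against bone marrow MP and 4 to 5 for the difference between tissues. The list genes called between muscle SP and MP numbered 5, but 8 with array weights, 9 without the 3 arrays of highest GAPDH ratio and 3 without muscle MP array 2 or 3. Those for the difference between tissues numbered 5 and 8 to 10 under 8 alternatives. Deviations of same-numbered arrays from their group means correlated at -0.14 to 0.30 between the groups compared. All were positive for muscle SP with muscle MP (0.07 to 0.21) and with bone marrow SP (0.05 to 0.30). No correlation was computed between arrays of different numbers, so a shared batch or pairing was not tested. The labels state no pairing, and the main fit does not take the numbers as pairs. With the replicate block the members called were 2, 8, 15, 18 and 5 in the order above, where without it they were 3, 8, 15, 18 and 5, and the call lost was Fgfr3 in muscle (adjusted p = 0.0587). Signal over background limits the dim members, whose folds depend on the floor.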

Other observations

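A probe set assigned to both Tmem119 and Igfbp5 (100566_at) falls outside the rule because it carries 2 symbols. Igfbp5 encodes an IGF binding protein of bone and muscle, and Tmem119 a membrane protein of microglia and bone-forming cells. Its mean log2 signal was 14.68 ± 0.76 in muscle SP, 14.74 ± 0.55 in muscle MP, 7.93 ± 0.81 in bone marrow SP and 6.72 ± 0.02 in bone marrow MP (SD, n = 5). Muscle exceeded bone marrow 107-fold in SP (limma, adjusted p = 5.90e-13) and 259-fold in MP (adjusted p = 1.99e-14), without overlap. Bone marrow SP exceeded MP 2.32-fold, with overlap (adjusted p = 0.0121), and the muscle groups differed by -0.06 ± 0.36 (SE, adjusted p = 0.959). The muscle change minus the bone marrow change, -1.28 ± 0.50 (SE), did not pass (adjusted p = 0.0853). Which of the 2 genes the signal comes from was not tested.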
